A study of Homo sapiens with 30 samples.

Results

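Interferon-stimulated genes were followed in 5 human breast cancer cell lines treated with bone morphogenetic protein 7 (BMP7) or vehicle. Of 40 gene symbols listed for the group, 38 named at least 1 probe of the array, and IRF9 and DDX60 named none and were skipped. The 38 genes carried 59 of 41000 probes, and each gene was read from its probe with the brightest vehicle signal. Of the 3 probes named IFI6, the file places 2 on chromosome 14 and the brightest, used here, on chromosome 1. The rule for members uses gene names and no measured value, and the list was drawn up with earlier results of these data known. Each of 30 two-colour arrays compared BMP7-treated cells (Cy5) with vehicle-treated cells (Cy3) of HCC1954, MDA-MB-231, MDA-MB-361, T-47D or ZR-75-30 at 0.5, 1, 3, 6, 12 or 24 h, with 1 array per line and time point. Replicate cultures were pooled before RNA extraction, no dye swap was made, and each line is a single established line, of which MDA-MB-231 and T-47D were grown with less serum than the others.

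Interferons are secreted alarm proteins of virus-infected cells. Their receptors act through Janus kinases on a transcription factor complex that holds STAT2 and IRF9, which binds the interferon-stimulated response element (ISRE) in the promoters of its target genes. The targets sense viral RNA, degrade or trap it, block virus entry and release, and present antigen, and in many tumor cells a part of them is expressed without added interferon. BMP7, in contrast, signals through receptor serine-threonine kinases and SMAD proteins.

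RefSeq promoters of 300 bases (250 before and 50 after the start, GRCh38.p14) were at hand for 29 of the 38 genes, 1 of them under another symbol. The ISRE core, GAAANNGAAA on either strand with overlapping matches counted, was in the promoters of 22 of these 29 genes (75.9%), and 16 of them held at least 2 matches. Counted by promoter, since some genes have several, 26 of 38 promoters of these genes (68.4%) held a match, against 3.57% of all 35116 promoters of this length. A match describes the letters and not a binding event. The stretches below are examples from genes whose vehicle level or BMP7 response is described later, and were not picked by rank. GBP1, HERC5, SAMD9 and RSAD2, among others, also held matches and are not shown. Each stretch is written 5′ to 3′ on the strand that reads the core, with the core in capitals.
IFIT1, chr10:89392497-89392526, minus strand: accgaaagggGAAAGTGAAActaaagctag
IFIT1, chr10:89392510-89392539, minus strand: gaaacctaggGAAACCGAAAggggaaagtg
ISG15, chr1:1013380-1013409, plus strand: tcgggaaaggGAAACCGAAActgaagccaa
IFIT3, chr10:89327865-89327894, minus strand: gaggaaactgGAAAGTGAAActaatttaaa
MX1, chr21:41420559-41420588, plus strand: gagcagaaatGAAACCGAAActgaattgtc
BST2, chr19:17405741-17405770, minus strand: tcctttctggGAAACTGAAActgaaaacct
IFI27, chr14:94110618-94110647, minus strand: cattttccagGAAACCGAAActgcagacat
IFI44, chr1:78649761-78649790, minus strand: tcagagaaagGAAACTGAAActcagtgtgc
IFITM1, chr11:314024-314053, plus strand: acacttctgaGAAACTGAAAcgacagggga
The 2 IFIT1 stretches overlap, and the second IFIT1 core and those of ISG15, MX1 and IFI27 share the letters GAAACCGAAA. OAS1, IRF1 and IFI35 were among the genes with no match in their windows.

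The share of probes with both channels well above background was 51.7% to 68.1% over the arrays. The lowest share was on the 6 h array of MDA-MB-231. There 2434 probes had no value once outlier-marked spots were left out, against at most 375 on any other array. Some vehicle levels of this array stood apart, such as GBP2 at 4.99 and IFI6 at 10.18, beside MDA-MB-231 medians of 7.76 and 8.50. The epithelial genes KRT18, KRT19 and CDH1 were well above background in all 5 lines, and ESR1 was not in MDA-MB-231. Of the leukocyte and fibroblast markers, PTPRC was above background on 1 array and DCN on none, while CD14, CD3E and COL1A1 were above it in most lines, and their part in the results was not tested. The lines lay on separate slides except for 1 slide shared by 2 lines, so for most arrays line, slide and serum cannot be told apart. The shared slide held the 0.5 and 6 h arrays of MDA-MB-231 and ZR-75-30. By scan date the arrays formed 2 batches. The second held 6 arrays, those of the shared slide, HCC1954 at 0.5 h and T-47D at 3 h, and so none at 12 or 24 h. RNA from each line is bulk RNA, in which fewer expressing cells and less RNA per cell cannot be told apart. Among the BMP target genes ID1, ID2, ID3, SMAD6 and SMAD7, the mean response over the lines was higher for ID1 by 0.81 and ID2 by 0.92 on the log2 scale (limma, Benjamini-Hochberg adjusted p = 0.0234 and 0.0114), where 0.577% of all probes were higher.

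The vehicle-treated lines differed widely in their interferon-stimulated genes. The log2 vehicle level, normalized between arrays, differed between the 5 lines for all 38 genes (limma F-test, Benjamini-Hochberg adjustment over all probes, threshold 0.05), where 73.6% of all probes tested did. The distance from the lowest to the highest line mean was 3.43 at the median of the 38 genes and 1.45 at the median of all probes. Among probes well above background on most arrays of a line, the medians were 3.73 for 37 of the genes and 1.83 for all such probes.

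MDA-MB-231 had the highest mean of 20 of the 38 genes. Against the mean of the other 4 lines, 28 genes were higher and 5 lower in MDA-MB-231. Of all probes, 25.5% were higher and 24.3% lower there (49.8% in either direction). Each later comparison of a line with the others also uses this mean, which a very low line can pull down. BST2, for example, counted as higher in MDA-MB-231 but ranked 4 there in the order of line means, at 11.70, with MDA-MB-361 at 5.54. HCC1954 had the highest mean of 8 genes. There 19 genes were higher and 6 lower than the mean of the other lines, against 22.4% and 22.3% of all probes (44.7% in either direction). MDA-MB-361 stood at the other end, with the lowest mean of 15 genes. There 26 genes were lower and 7 higher, against 26.1% and 26.5% of all probes (52.7% in either direction). T-47D was mixed, with 13 genes higher (25.6% of all probes) and 17 lower (25.3%, and 50.9% in either direction). ZR-75-30 had 6 genes higher (23.1% of all probes) and 15 lower (22.1%, and 45.1% in either direction). The median difference from the other lines over the 38 genes was 1.16 in MDA-MB-231, 0.60 in HCC1954, -0.03 in ZR-75-30, -0.44 in T-47D and -1.46 in MDA-MB-361, while that of all probes lay between -0.06 and -0.01 in each line.

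**Figure D1:**
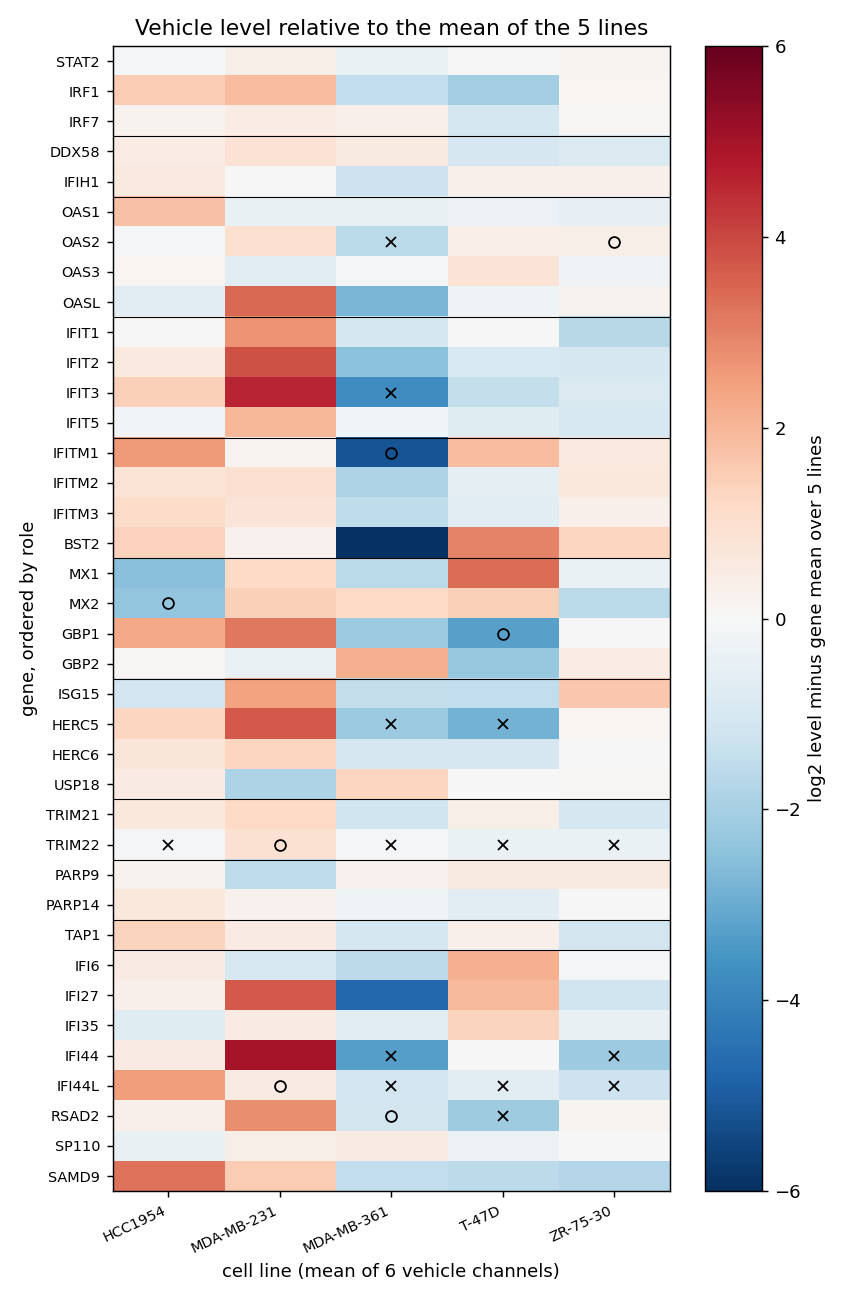
Vehicle level of the 38 interferon-stimulated genes (rows, ordered by role) in 5 cell lines (columns), as the log2 mean of 6 vehicle channels minus the mean of the 5 lines. Crosses mark genes not well above background on any array of a line and circles those above it on 1 to 3 arrays. MDA-MB-231 holds the highest mean of 20 genes and MDA-MB-361 the lowest of 15.

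Among the membrane proteins, BST2 (tetherin, which holds budding virus at the cell surface) had the largest range. Its log2 vehicle level had a lowest, median and highest value of 14.21, 14.43 and 14.70 in T-47D and of 5.18, 5.55 and 5.87 in MDA-MB-361. The means were 12.84 ± 0.32 in HCC1954, 12.74 ± 0.20 in ZR-75-30 and 11.70 ± 0.27 in MDA-MB-231 (SD, n = 6 arrays each). No MDA-MB-361 array came near any array of the other lines, and the highest and lowest line means were 475-fold apart. The difference of MDA-MB-361 from the other 4 lines was -7.39 (SE 0.12, adjusted p = 1.8e-27, limma), and HCC1954 and ZR-75-30 were the only neighbours in the order whose difference did not pass the threshold (adjusted p = 0.657).

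IFITM1, which blocks the fusion of entering virus, was likewise low in MDA-MB-361 only, at 3.41, 4.68 and 5.47 (lowest, median and highest), and was well above background on 3 of its 6 arrays. In HCC1954 it lay between 11.63 and 12.85 with a median of 12.05. The means in T-47D, ZR-75-30 and MDA-MB-231 were 11.50 ± 0.64, 10.23 ± 0.38 and 9.80 ± 0.50 (SD, n = 6). The arrays of MDA-MB-361 did not overlap with any other line, and the difference was -6.50 (SE 0.25, adjusted p = 6.64e-19). HCC1954 and T-47D did not differ past the threshold (adjusted p = 0.0732), nor did ZR-75-30 and MDA-MB-231 (0.298). The related IFITM2 and IFITM3 also had their lowest means in MDA-MB-361, over ranges of 2.78 and 2.64. Close paralogs can share signal on an array, and how far their probes did so was not tested.

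IFI27, a mitochondrial protein and a common marker of interferon exposure, had its highest level in MDA-MB-231, at 13.80, 14.11 and 14.76. In MDA-MB-361 it lay at 4.61, 5.94 and 6.31 and was well above background on 5 arrays. The means in between were 12.44 ± 0.34 in T-47D, 10.77 ± 0.55 in HCC1954 and 9.28 ± 0.68 in ZR-75-30 (SD, n = 6). Each step down in this order passed the threshold, and the ends were 338-fold apart. A second IFI27 probe was also highest in MDA-MB-231.

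IFI44, whose function is poorly known, was an MDA-MB-231 gene, with a lowest, median and highest level of 10.97, 11.51 and 11.89. The means in HCC1954 and T-47D were 6.96 ± 0.43 and 6.43 ± 0.40 (SD, n = 6), which did not differ past the threshold (adjusted p = 0.226). In MDA-MB-361 and ZR-75-30 it was not well above background on any array. Where a gene was not above background in a line, its bound there is, on each array, the higher of its own signal and the weakest signal among probes above background. On that bound IFI44 was at least 232-fold higher in MDA-MB-231 than in MDA-MB-361 and at least 139-fold higher than in ZR-75-30. Its neighbour IFI44L was well above background on all 6 HCC1954 arrays and otherwise on 1 array of MDA-MB-231. It was at least 6.09-fold higher in HCC1954 than in MDA-MB-361, 4.36-fold than in T-47D and 4.58-fold than in ZR-75-30.

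The IFIT genes, whose products bind viral RNA lacking a host cap, formed a block that was high in MDA-MB-231. IFIT3 had a lowest, median and highest level of 9.39, 10.80 and 11.64 there, and a mean of 7.45 ± 0.30 in HCC1954, 5.16 ± 0.61 in ZR-75-30 and 4.62 ± 1.05 in T-47D (SD, n = 6). No array of the other lines reached the MDA-MB-231 range. It was not well above background in MDA-MB-361, a difference of at least 156-fold, and ZR-75-30 and T-47D did not differ past the threshold (adjusted p = 0.244). IFIT2 lay between 12.73 and 13.87 in MDA-MB-231 with a median of 13.29, and between 6.48 and 7.63 in MDA-MB-361 with a median of 6.92, a 76.9-fold difference of means. The means in HCC1954, T-47D and ZR-75-30 were 10.03, 8.55 and 8.42, and the last 2 did not differ past the threshold (adjusted p = 0.705). IFIT1 had its highest mean in MDA-MB-231 (12.74 ± 0.65, n = 6) and its lowest in ZR-75-30 (8.38 ± 0.56), and IFIT5 followed over a range of 2.95.

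OASL, an oligoadenylate synthetase relative that aids RNA sensing, lay between 10.79 and 12.40 in MDA-MB-231 (median 11.31) and between 4.81 and 5.87 in MDA-MB-361 (median 5.16). The groups did not overlap and the means were 73.1-fold apart. ZR-75-30, T-47D and HCC1954 came in between with 8.18, 7.75 and 7.36, and neighbours among these did not differ past the threshold (adjusted p = 0.11 and 0.167). The other synthetases, which make the short RNA that turns on RNase L, had other orders. OAS1 was highest in HCC1954 and OAS3 in T-47D, over ranges of 2.26 and 1.43. OAS2 was highest in MDA-MB-231, at least 3.99-fold above MDA-MB-361, where no array was well above background.

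**Figure D2:**
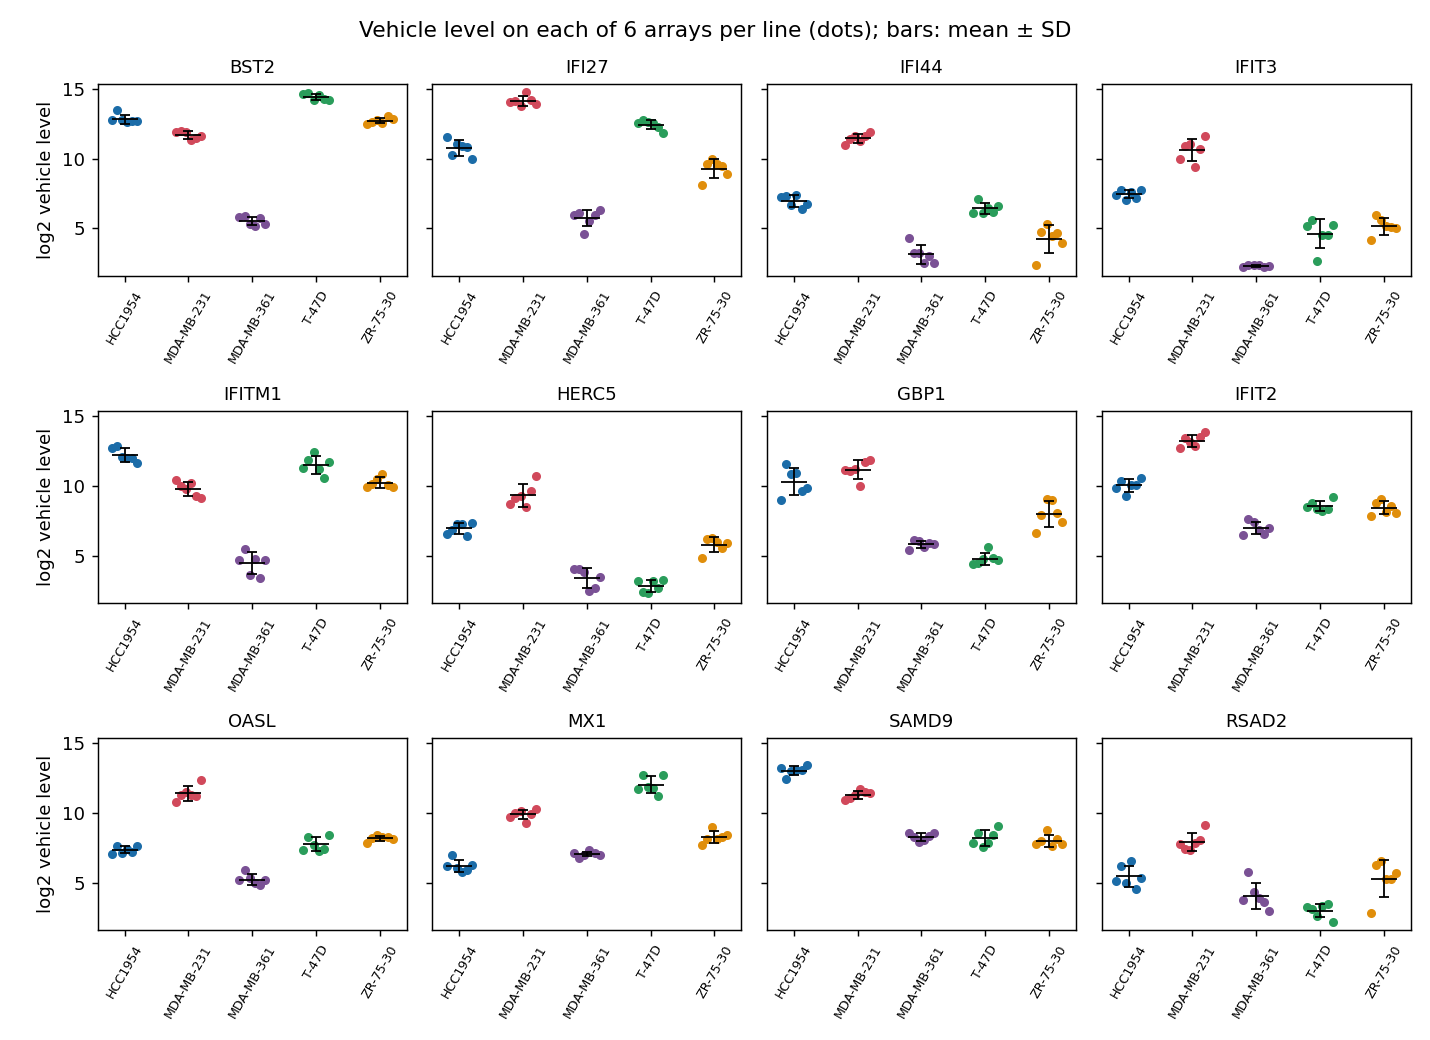
Log2 vehicle level (vertical axis) of the 12 genes with the largest range of line means in 5 cell lines. Dots are single arrays (6 per line), and bars give the mean ± SD. BST2 and IFITM1 separate MDA-MB-361 from the other lines, and MX1 is highest in T-47D with a mean of 12.02.

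The antiviral GTPases did not move together. MX1, which blocks incoming viral particles, was highest in T-47D at 11.21, 11.84 and 12.75 and lowest in HCC1954 at 5.77, 6.14 and 6.96, with no overlap and means 56.9-fold apart. MDA-MB-231, ZR-75-30 and MDA-MB-361 had means of 9.89, 8.27 and 7.06, and every neighbour in the order differed past the threshold. GBP1, a guanylate-binding protein known for induction by interferon gamma, was instead lowest in T-47D, at 4.37, 4.69 and 5.59 and above background on 2 arrays. It was highest in MDA-MB-231 at 9.95, 11.16 and 11.88, and the HCC1954 mean of 10.30 did not differ from it past the threshold (adjusted p = 0.0872). GBP2 was highest in MDA-MB-361, at a mean of 9.97 ± 0.13 (SD, n = 6), 2.69 above the other lines (SE 0.31, adjusted p = 1.13e-08), and lowest in T-47D at 5.55 ± 0.55. The MX2 probe used here was highest in T-47D and not separated from MDA-MB-231 (adjusted p = 0.965), and a second MX2 probe was highest in MDA-MB-231.

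In the ISG15 system, which attaches the ubiquitin-like ISG15 to proteins, the modifier and its ligase and protease had different orders. ISG15 had its highest mean in MDA-MB-231 (14.62 ± 0.51, n = 6) and the next in ZR-75-30 (13.85 ± 0.28), which differed (adjusted p = 0.00787), and the other lines lay between 10.72 and 11.06 and were not separated. HERC5, the ISG15 ligase, lay between 8.45 and 10.73 in MDA-MB-231 (median 9.20) and had means of 6.94 in HCC1954 and 5.77 in ZR-75-30. It was not well above background in MDA-MB-361 or T-47D, differences of at least 51.8-fold and 48.9-fold from MDA-MB-231. USP18, the protease that removes ISG15 and damps interferon receptor signaling, ran the other way. It was lowest in MDA-MB-231, between 9.36 and 9.76, and highest in MDA-MB-361, between 12.63 and 12.92. The difference of MDA-MB-231 from the other lines was -2.30 (SE 0.10, adjusted p = 3.95e-18, limma), and no MDA-MB-231 array overlapped with another line.

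SAMD9, a restriction factor of poxviruses, was high in HCC1954 (lowest, median and highest 12.41, 13.08 and 13.41) and MDA-MB-231 (mean 11.31). MDA-MB-361, T-47D and ZR-75-30 lay at 8.28, 8.21 and 8.01 and did not differ past the threshold from their neighbours (adjusted p = 0.824 and 0.5). RSAD2 (viperin, which makes a chain-terminating nucleotide) lay between 7.33 and 9.16 in MDA-MB-231 with a median of 7.80, at least 18.4-fold above T-47D, where no array was well above background. TRIM22 was well above background on 2 MDA-MB-231 arrays and no other. Among the regulators, the ranges were 0.72 for STAT2, 1.54 for IRF7 and 3.89 for IRF1, a transcription factor highest in MDA-MB-231 and lowest in T-47D. The remaining genes (DDX58, IFIH1, HERC6, TRIM21, PARP9, PARP14, TAP1, IFI6, IFI35 and SP110) had ranges between 0.95 and 3.73.

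In vehicle-treated cells no gene of the 38 was called between the first hour and 12 to 24 h of culture. None passed the threshold in the fit of 12 and 24 h against 0.5 and 1 h with cell line as a block (limma), where 0.0268% of all probes did, and 5 of 38 had an unadjusted p under 0.05.

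The genes around the pathway were read as fixed lists. Of the interferon ligands, 8 of 9 were on the array and IL28A, a type III interferon, was the only 1 well above background on at least 4 arrays of a line. IFNB1, IFNG, IFNA2, IFNK and IFNW1 reached background on at most 1 array per line. Of 9 receptor chains and kinases, 5 were higher and 1 lower in MDA-MB-231 than in the other lines, where 25.5% and 24.3% of all probes were, and none was higher and 6 were lower in MDA-MB-361, where 26.5% and 26.1% of all probes were. IFNAR2, a chain of the type I receptor, was well above background only in HCC1954 and MDA-MB-231, and JAK2 had a mean of 10.18 in HCC1954 against 6.13 to 6.84 elsewhere. Of 16 further interferon-stimulated genes, 11 were higher and 1 lower in MDA-MB-231, 10 higher and 4 lower in HCC1954, 6 higher and 9 lower in MDA-MB-361, 1 higher and 13 lower in T-47D and 3 higher and 11 lower in ZR-75-30, beside all-probe shares of 22.1% to 26.5% in each direction. IFI16, a sensor of DNA, had means of 12.67 in HCC1954 and 11.55 in MDA-MB-231 and was not well above background on any array of the other lines.

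The response to BMP7 was read as the log2 ratio of BMP7 over vehicle on each array, kept where both channels were well above background, which gave 987 values for the 38 genes. A dye effect of a probe that is constant over arrays stays in these ratios because no dyes were swapped. A 2-fold change in either direction was seen in 17 of 987 values (1.72%), of which 7 were increases and 10 decreases, against 0.798% of all probe values. The changes fell on 8 of the 30 arrays and 11 of the 38 genes, and 27 genes had none. By line, ZR-75-30 had 6 changes in 196 values (3.06%, all probes 1.95%), HCC1954 had 5 in 211 (2.37%, all probes 0.271%) and T-47D had 4 in 186 (2.15%, all probes 1.13%). MDA-MB-231 had 2 in 214 (0.935%, all probes 0.502%) and MDA-MB-361 had 0 in 180 (all probes 0.196%). The 6 h array of ZR-75-30 had 8.52% of all its probes changed and no gene of the group. Without that array the shares over all lines were 1.78% for the group and 0.526% for all probes. With 1 array per line and time point there is no test of a single value.

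**Figure D3:**
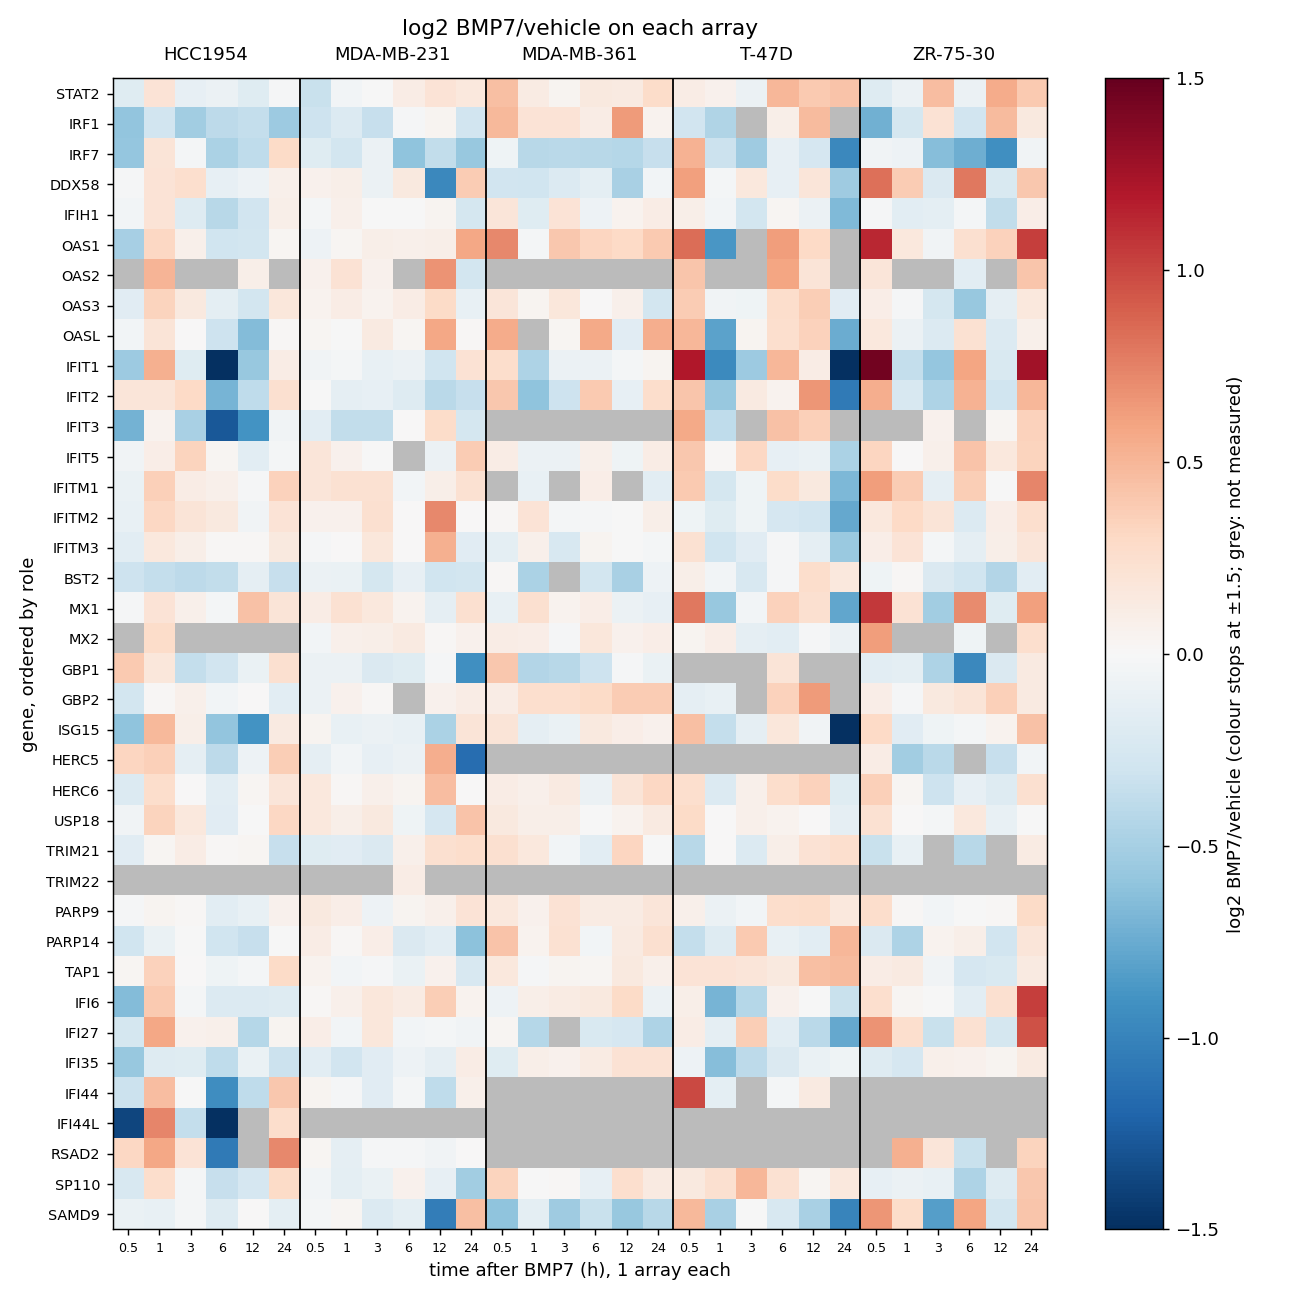
Log2 BMP7/vehicle of the 38 genes (rows, ordered by role) on each of the 30 arrays (columns, 6 times per line). Grey cells had a channel not well above background. Most cells are pale, and the strong columns are ZR-75-30 at 0.5 and 24 h, T-47D at 24 h and HCC1954 at 6 h.

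The 2-fold changes came together on a few arrays. In HCC1954 at 6 h, 11.4% of the measured genes changed, against 0.129% of all probes on that array. The shares were 11.1% against 1.6% in T-47D at 24 h. In ZR-75-30 they were 9.09% against 0.906% at 0.5 h and 8.57% against 0.149% at 24 h. The other arrays with a change had 1 gene each, 2.78% to 3.03% of those measured, against 0.848% to 1.39% of all probes. In HCC1954 at 6 h, IFI44L was at -2.56, IFIT1 at -1.49, IFIT3 at -1.27 and RSAD2 at -1.06, and IFI44L was at -1.38 at 0.5 h. In T-47D, IFIT1 was at 1.21 at 0.5 h, and at 24 h IFIT1 was at -1.79, ISG15 at -1.63 and IFIT2 at -1.06. In ZR-75-30, IFIT1 was at 1.45, OAS1 at 1.13 and MX1 at 1.07 at 0.5 h, and IFIT1 at 1.26, OAS1 at 1.04 and IFI6 at 1.03 at 24 h. The 0.5 h array of ZR-75-30 was of the second scan batch, on the same slide as its 6 h array. The part of the slide in these values was not tested. All changes in HCC1954 and MDA-MB-231 were decreases and all in ZR-75-30 were increases. The MDA-MB-231 changes were SAMD9 at -1.03 at 12 h and HERC5 at -1.14 at 24 h. Under normexp background correction with loess or median scaling, all these changes kept their direction but several fell short of 2-fold. IFI44L at 0.5 h, IFIT3 and RSAD2 in HCC1954, IFIT2 in T-47D, and MX1 and OAS1 in ZR-75-30 did so under both. The OAS1 values were 0.45 and 0.43 at 0.5 h and 0.75 and 0.76 at 24 h. SAMD9, and IFIT1 in T-47D at 0.5 h, fell short under median scaling only, and the rest stayed past 2-fold.

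On those arrays of HCC1954, T-47D and ZR-75-30 most of the group lay on one side of 0. Some arrays that held no 2-fold change, such as the 1 h arrays of HCC1954 and T-47D, did so too. In HCC1954, 29 of 35 measured genes were below 0 at 6 h (median -0.29) and 30 of 35 at 0.5 h (-0.17), but 32 of 37 were above 0 at 1 h (0.21). In T-47D, 27 of 33 were above 0 at 0.5 h (0.25), 25 of 32 below 0 at 1 h (-0.18) and 20 of 27 below 0 at 24 h (-0.48). In ZR-75-30, 23 of 33 were above 0 at 0.5 h (0.16) and 31 of 35 at 24 h (0.25). Other ZR-75-30 arrays lay on the other side, with 23 of 32 below 0 at 3 h (-0.08) and 19 of 31 at 12 h (-0.18). In HCC1954 at 12 h, 27 of 34 were below 0 (-0.14), and in MDA-MB-361 at 0.5 h, 23 of 30 were above 0 (0.15). The sign thus changed between time points within HCC1954, T-47D and ZR-75-30. In MDA-MB-231 the array medians stayed between -0.01 and 0.03, and its 2 arrays with a change had 19 of 36 genes above 0 at 12 h and 21 of 36 at 24 h. All probes on an array had a median between -0.02 and 0.03.

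IFIT1 was the only gene with at least 3 changes (5) and the only 1 changed in both directions. Its log2 ratios at 0.5, 1, 3, 6, 12 and 24 h were 1.21, -0.95, -0.54, 0.50, 0.11 and -1.79 in T-47D. They were 1.45, -0.36, -0.58, 0.59, -0.23 and 1.26 in ZR-75-30, and -0.55, 0.54, -0.18, -1.49, -0.57 and 0.11 in HCC1954. In MDA-MB-231 and MDA-MB-361 every value lay between -0.47 and 0.26. No line had 1 sign throughout, and no within-line mean passed the threshold (limma, adjusted p from 0.346 in ZR-75-30 to 0.949 in MDA-MB-231).

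The channels behind these ratios showed that IFIT1 moved in vehicle as well as with BMP7. In T-47D the vehicle level was 9.50, 10.96, 9.46, 9.39, 9.77 and 11.40 over the time points, and the BMP7 level was 10.71, 10.01, 8.91, 9.89, 9.88 and 9.62. The 24 h decrease thus met the highest vehicle value of the line. In ZR-75-30 the vehicle level was 7.58, 8.75, 9.09, 7.95, 8.63 and 8.24 and the BMP7 level 9.03, 8.39, 8.52, 8.54, 8.41 and 9.50, so that the 0.5 h increase met the lowest vehicle value. In HCC1954 the 6 h decrease instead met the lowest BMP7 value (8.85), with vehicle at 10.34. The SD over the 6 time points was 0.87 in vehicle and 0.58 with BMP7 in T-47D, 0.56 and 0.44 in ZR-75-30 and 0.46 and 0.66 in HCC1954. The part of array-to-array differences in these values was not tested.

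**Figure D4:**
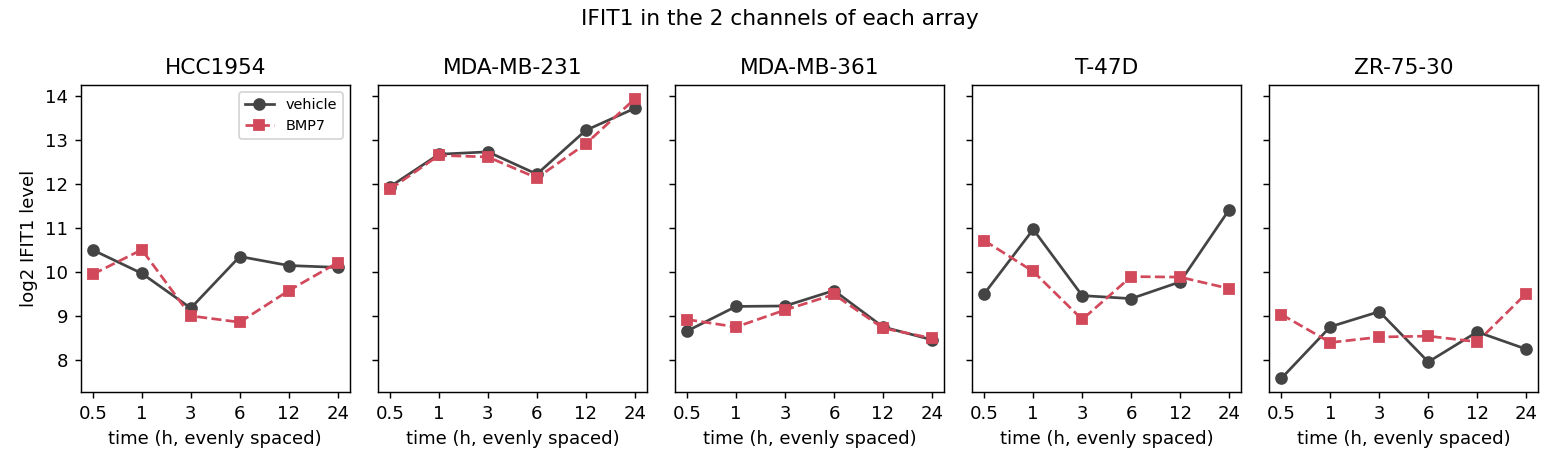
Log2 IFIT1 level in the vehicle and BMP7 channel of each array (vertical axis) by time (6 points, evenly spaced) in 5 lines, 1 array per point and no error bars. In T-47D the vehicle line peaks at 11.40 at 24 h, and in MDA-MB-231 and MDA-MB-361 both channels run close together.

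Over 30 arrays the log ratios of the group moved together. Among 20 genes measured on every array, the median Pearson correlation of 190 pairs was 0.26 (lowest -0.48, highest 0.89), 147 pairs were above 0, and the median with 16072 other probes was -0.01. The closest pairs were DDX58 with SAMD9 (0.89), IFITM2 with IFITM3 (0.85), MX1 with SAMD9 (0.83), IFIT1 with ISG15 (0.82), IFIT1 with MX1 (0.80) and IFIT1 with IFIT2 (0.78). IFIT1 had a median of 0.58 with the other 19 genes, and PARP14, TAP1 and STAT2 had the lowest, -0.05, 0.02 and 0.04. The points share their arrays, slides and dye orientation, and with line means taken out the median was 0.33. Not every probe of a gene followed. The ratios of 3 further SAMD9 probes correlated with the probe used at -0.72, 0.28 and 0.06 over 12, 18 and 17 arrays, and those of a second USP18 probe at -0.12 over 30. For a second probe of GBP2, IFI6 and MX2 the values were 0.25 over 16 arrays, 0.22 over 30 and -0.37 over 12. Second probes of OAS3, IFIT2, IFIT5, GBP1, HERC6 and IFI27 followed at 0.55 to 0.95.

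**Figure D5:**
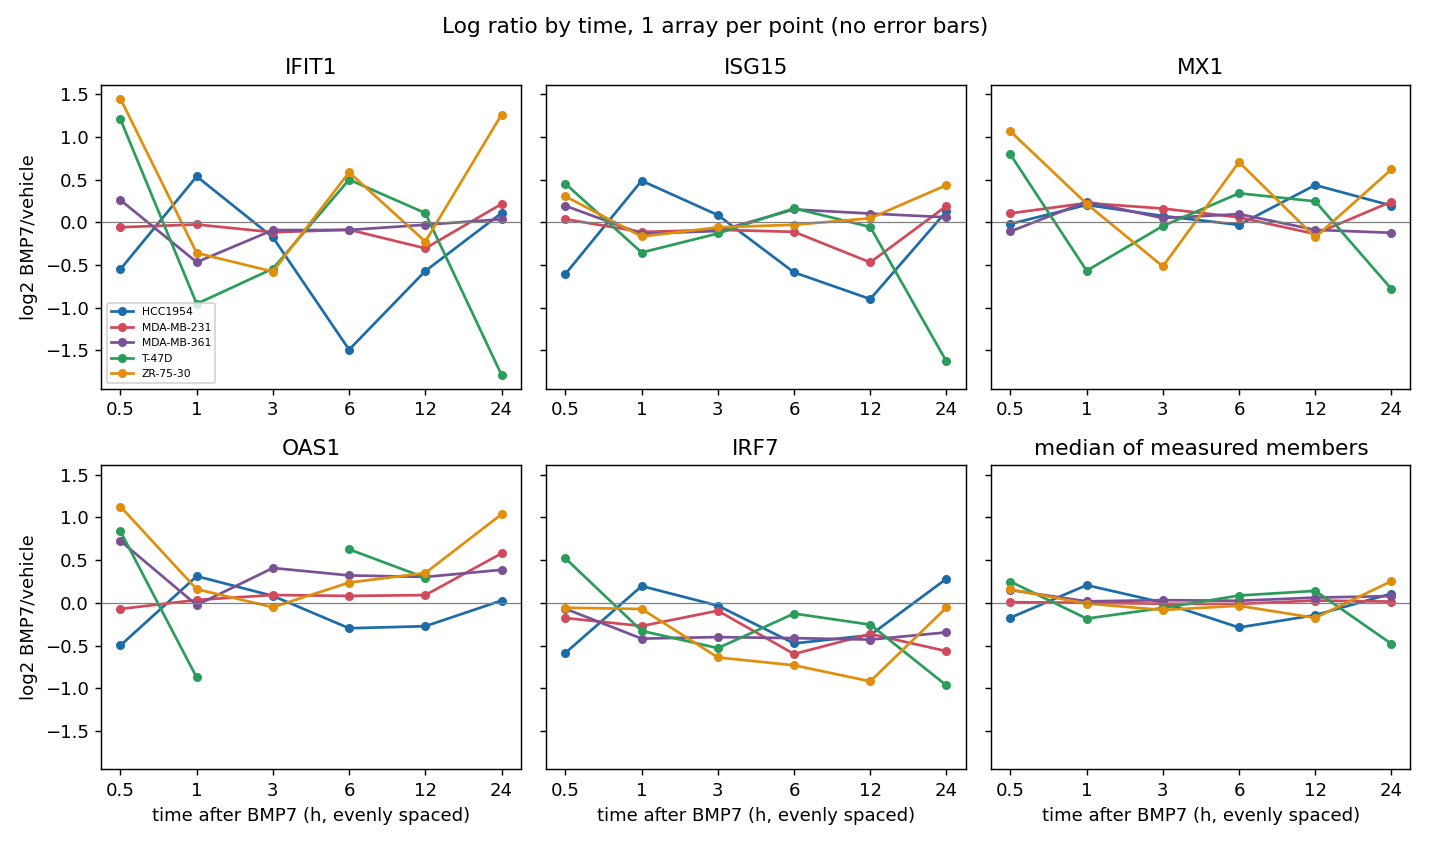
Log2 BMP7/vehicle (vertical axis) of IFIT1, ISG15, MX1, OAS1 and IRF7 and the median of all measured genes of the group, by time (evenly spaced) in 5 lines, 1 array per point and no error bars. IFIT1 and ISG15 fall to -1.79 and -1.63 in T-47D at 24 h, and the medians of the group stay between -0.48 and 0.25.

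A mean log2 ratio over the 5 lines that differed from 0 was seen in 1 gene. IRF7, the transcription factor that amplifies interferon production, had 6 ratios in time order of -0.07, -0.42, -0.40, -0.41, -0.43 and -0.35 in MDA-MB-361 and of -0.18, -0.27, -0.09, -0.60, -0.36 and -0.57 in MDA-MB-231. In ZR-75-30 they were -0.06, -0.07, -0.64, -0.73, -0.92 and -0.05. All 18 values in these lines were below 0, while HCC1954 (mean -0.17 ± 0.37, SD, n = 6) and T-47D (-0.28 ± 0.49) held values of both signs. The mean of the 5 line means was -0.31 (SE 0.05, n = 5 lines, adjusted p = 0.0373, limma with Benjamini-Hochberg adjustment), below 0 in 5 of 5 lines. It was the only one of 32 genes tested that passed, where 0.208% of all probes were lower and 0.577% higher (0.785% in either direction), and 4 of 32 had an unadjusted p under 0.05. The median of the 32 genes was 0.01 and that of all probes -0.00. With any 1 line left out the mean lay between -0.35 and -0.28 and the adjusted p between 0.0697 and 0.245. In the first scan batch alone the mean was -0.28 (adjusted p = 0.0685), and without the background filter the adjusted p was 0.0907. Under normexp background correction and median scaling the mean was -0.14 (adjusted p = 0.365). That setting, here and below, put array medians of measured probes between -0.39 and 0.84. With no dye swap, a constant dye effect of the IRF7 probe and a response to BMP7 cannot be told apart. The second IRF7 probe was well above background in both channels on 0 arrays.

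Within HCC1954, 4 of 35 genes were lower and none was higher, where 4.99% of all probes were lower and 4.08% higher (9.07% in either direction). BST2 had ratios of -0.31, -0.36, -0.39, -0.37, -0.13 and -0.34 in time order, with a mean of -0.32 (SE 0.07, adjusted p = 0.00519, limma). IRF1, an activator of antiviral and antigen presentation genes, lay at -0.59, -0.29, -0.52, -0.39, -0.36 and -0.54, with a mean of -0.45 (SE 0.11, adjusted p = 0.0129). Both were below 0 on each of the 6 arrays. IFI35, a leucine zipper protein, lay at -0.57, -0.20, -0.18, -0.38, -0.10 and -0.32, with a mean of -0.29 (SE 0.07, adjusted p = 0.0128). IFIT3 lay at -0.71, 0.05, -0.49, -1.27, -0.89 and -0.06, with a mean of -0.56 (SE 0.14, adjusted p = 0.0178), and was below 0 on 5 arrays. In the first scan batch, which leaves out the 0.5 h array, the means were -0.32 for BST2, -0.42 for IRF1, -0.23 for IFI35 and -0.53 for IFIT3, and the last 2 no longer passed (adjusted p = 0.0722 and 0.0569). With each array of the line left out in turn, BST2 passed every time, IRF1 did not without 0.5 or 24 h (adjusted p = 0.0566 and 0.0558), IFI35 did not without the same arrays (0.0852 and 0.0505), and IFIT3 did not without 0.5, 6 or 12 h (0.068, 0.0694 and 0.0589). For IFIT3 the adjusted p was 0.122 with no background filter and 0.117 with 1 channel above background. Under normexp background correction and median scaling none of the 4 passed, with means of -0.0014 for BST2, -0.26 for IRF1, -0.14 for IFI35 and -0.35 for IFIT3 (adjusted p = 0.997, 0.279, 0.336 and 0.191), and IFIT3 was at -0.35 under normexp and loess as well (0.0335). IFI44L had the largest mean of any line, -0.66 ± 1.33 (SD, n = 5), which did not pass (adjusted p = 0.317).

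No gene passed within MDA-MB-231, where 1.91% of all probes did (1.16% higher and 0.751% lower), and 3 of 36 had an unadjusted p under 0.05. Within MDA-MB-361, 1 of 30 genes was higher and 1 lower, against 7.72% and 8.3% of all probes. GBP2 lay at 0.11, 0.26, 0.25, 0.28, 0.38 and 0.38 over the time points, above 0 on 6 of 6 arrays, with a mean of 0.28 (SE 0.07, adjusted p = 0.0138). BST2 lay at 0.02, -0.48, -0.28, -0.48 and -0.08 at 0.5, 1, 6, 12 and 24 h, with a mean of -0.26 (SE 0.07, adjusted p = 0.02), and was not measured at 3 h. The BST2 call was lost without the 1 or the 12 h array (adjusted p = 0.0911 and 0.126) and under normexp with loess or median scaling (means -0.059 and -0.16, adjusted p = 0.59 and 0.593), and the GBP2 call without the 12 h array (0.0621) or the background filter (0.0615). Under normexp and median scaling, where array medians lay between -0.39 and 0.84, the GBP2 mean was 0.54, a value that includes such array offsets. SAMD9 lay between -0.61 and -0.15 on the 6 arrays of this line, with a mean of -0.43 that did not pass (adjusted p = 0.0562).

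Within T-47D, 1 of 32 genes was higher and 2 were lower, against 8.47% and 9.78% of all probes. TAP1, which carries peptides into the endoplasmic reticulum for MHC class I, lay at 0.21, 0.20, 0.18, 0.15, 0.45 and 0.47, above 0 on 6 of 6 arrays (mean 0.28, SE 0.06, adjusted p = 0.0032). IFI35 lay at -0.07, -0.63, -0.39, -0.21, -0.10 and -0.06, below 0 on each array (mean -0.25, SE 0.07, adjusted p = 0.0181), and did not pass in the first scan batch (-0.22, adjusted p = 0.0524). IFITM2 lay at -0.06, -0.18, -0.06, -0.26, -0.29 and -0.76 (mean -0.27, SE 0.08, adjusted p = 0.0254). Without the 24 h array the IFITM2 mean was -0.17 and did not pass (adjusted p = 0.183), nor did it without 12 h (0.0517) or under normexp with loess or median scaling (means -0.12 and -0.073, adjusted p = 0.316 and 0.986). IFI35 did not pass without the 1 or the 3 h array (means -0.17 and -0.22, adjusted p = 0.122 and 0.0569), and TAP1 passed without any 1 array. Under normexp and median scaling neither TAP1 nor IFI35 passed (adjusted p = 0.777 and 0.48).

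Within ZR-75-30, 2 of 32 genes were higher and 2 lower, against 8.18% and 8.95% of all probes. OAS1 lay at 1.13, 0.16, -0.05, 0.24, 0.35 and 1.04, with a mean of 0.48 (SE 0.16, adjusted p = 0.0355). IFITM1 lay at 0.63, 0.38, -0.13, 0.36, -0.01 and 0.74, with a mean of 0.33 (SE 0.11, adjusted p = 0.0341). The 0.5 and 24 h arrays carried the high values of both. IRF7 (values above) had a mean of -0.41 (SE 0.13, adjusted p = 0.0316) and BST2 one of -0.19 (SE 0.07, adjusted p = 0.0471), with values from -0.44 to 0.01. The 6 h array of this line stood apart, with 8.52% of its probes changed 2-fold, and without it none of the 4 passed (means of OAS1, IFITM1, IRF7 and BST2 0.52, 0.32, -0.35 and -0.17, adjusted p = 0.0687, 0.105, 0.153 and 0.175). OAS1 and IFITM1 did not pass without the 0.5 h array (adjusted p = 0.119 and 0.0884) or the 24 h array (0.132 for both), IRF7 did not without 3 or 12 h (0.0821 and 0.133) and BST2 not without 3, 12 or 24 h (0.0829, 0.174 and 0.0735). Nor did OAS1 pass without 12 h (0.0568) or IFITM1 without 1 h (0.0614). With slide as a random block the adjusted p lay between 0.0503 and 0.0613, and without the background filter between 0.0522 and 0.149. The OAS1 mean was 0.23 under normexp and loess (adjusted p = 0.101) and 0.24 under normexp and median scaling (0.368), and its adjusted p was 0.0966 with 1 channel above background. The BST2 mean was -0.32 under normexp and loess.

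The response differed between lines for 5 of 28 genes tested (limma F-test), where it did for 23.9% of all probes. IRF1 (adjusted p = 0.018) had means of -0.45 in HCC1954 and -0.19 in MDA-MB-231 but 0.28 in MDA-MB-361, where all 6 values lay between 0.06 and 0.64 and did not overlap with those of HCC1954. IFI35 (0.0285), IFITM2 (0.0292), TAP1 (0.0384) and BST2 (0.0479) were the others. BST2 had a mean of 0.03 ± 0.18 in T-47D (SD, n = 6) and was below 0 in the other 4 lines. IFITM2 was below 0 on every T-47D array, with means of 0.04 to 0.19 in the other lines. For BST2 the adjusted p was 0.0501 without the ZR-75-30 array at 6 h, in the first scan batch IFI35 and TAP1 no longer passed (0.0783 and 0.0708), and with slide as a random block IRF1 alone passed (0.0414).

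Late responses were higher than early ones for 2 of 31 genes and lower for none, where 4.88% of all probes were higher and 1.83% lower (6.71% in either direction). The ratio of IFI35 at 12 and 24 h minus that at 0.5 and 1 h was 0.31 in ZR-75-30, 0.27 in T-47D, 0.26 in MDA-MB-361, 0.21 in MDA-MB-231 and 0.18 in HCC1954. All 5 lines thus moved the same way, by 0.25 in the fit with cell line as a block (SE 0.07, adjusted p = 0.0337, limma). The IFI35 means over all time points were -0.29 in HCC1954, -0.25 in T-47D, -0.12 in MDA-MB-231, -0.02 in ZR-75-30 and 0.09 in MDA-MB-361. In HCC1954 and T-47D both late ratios were still below 0, so the late difference there was a smaller decrease. GBP2 rose by 0.23 (SE 0.07, adjusted p = 0.0489), with differences of 0.05, 0.10, 0.19 and 0.21 in HCC1954, MDA-MB-231, MDA-MB-361 and ZR-75-30 and only 1 late value in T-47D (0.64 at 12 h). Without T-47D the GBP2 difference was 0.14 (adjusted p = 0.316). Neither gene passed in the first scan batch or without MDA-MB-231, MDA-MB-361, T-47D or ZR-75-30, where IFI35 differences of 0.23 to 0.26 and adjusted p from 0.0688 to 0.236 were found. Without the background filter the differences were 0.14 for GBP2 and 0.25 for IFI35 (adjusted p = 0.507 and 0.0557), under normexp and loess 0.12 and 0.18 (0.136 and 0.0594), and under normexp and median scaling 0.015 and 0.11 (0.942 and 0.473). The median over the 31 genes was -0.08 and over all probes -0.01.

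In the mean over the lines none of 8 receptor chains and kinases, 7 sensing genes, 6 negative regulators and 13 further interferon-stimulated genes passed. Of the receptor chains and kinases, 2 of 8 passed within T-47D, 3 of 8 within ZR-75-30 and 2 of 8 within HCC1954, and none in the other lines. Of the sensing genes, 2 of 8 passed within MDA-MB-361, 2 of 7 within ZR-75-30, 2 of 9 within HCC1954, 1 of 8 within MDA-MB-231 and none within T-47D. Of the negative regulators, 2 of 6 passed, all higher, within each of ZR-75-30, T-47D and MDA-MB-361 and none elsewhere. Of the further interferon-stimulated genes, 3 of 13 passed within MDA-MB-361, 2 of 13 within T-47D, 2 of 13 within ZR-75-30, 2 of 14 within HCC1954 and none of 16 within MDA-MB-231. The shares of all probes called in either direction were 9.07% for HCC1954, 1.91% for MDA-MB-231, 16% for MDA-MB-361, 18.3% for T-47D and 17.1% for ZR-75-30. Between lines, 1 of 8, 2 of 7, 1 of 5 and 2 of 13 differed in these lists, against 23.9% of all probes. In the late against early fit, MYD88, an adaptor of Toll-like receptors, rose by 0.37 (adjusted p = 0.0335) and SOCS3, an inhibitor of Janus kinases, rose by 0.28 (adjusted p = 0.0343), and none of 13 further interferon-stimulated genes passed. Of the BMP targets tested in the same fit, 4 of 5 rose, where 4.88% of all probes did. Within MDA-MB-231, where no interferon-stimulated gene passed, 3 of the 4 BMP targets tested did, with ID1 at 1.39 and ID2 at 1.49 (1.16% of all probes higher), and within T-47D none of 5 did.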

How the data were processed

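The 30 arrays are Agilent Whole Human Genome arrays. Per the file headers, Feature Extraction 9.5.1.1 made the log10 ratios and channel intensities that were deposited, after background correction and dye normalization. A table of log2 ratios that the authors deposited as well served as an alternative.

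The ratios were put on the log2 scale without control spots and spots marked as outliers, averaged per probe and shifted to an array median of 0 before the background filter. Vehicle levels were log2 processed signals of the Cy3 channel after A-quantile normalization between arrays. Fits used limma 3.58.1 in R 4.3.3 with Benjamini-Hochberg adjustment over all probes at 0.05. The mean response was fitted on 5 line means, the others on 30 arrays, and a line needed at least 4 of 6 values. The arrays of a line are time points of pooled cultures, so p-values measure only the spread between these samples, and the number of arrays limits the precision. In tests on 16092 simulated probes with 200 changed by 1 on the log2 scale, the mean fit recovered 200 with 9 false calls, the fit within T-47D 200 with 9, the test between lines 195 with 13 and the late against early fit 199 with 6. For vehicle levels, 200 and 199 of 200 changes of 2 were recovered for T-47D against the other lines and between lines, and 186 of 200 changes of 1 over time. The simulated noise was independent and normal, with no dye, slide or array effect. The called BMP7 means of the group were smaller than 1, from -0.19 (BST2 in ZR-75-30) to -0.56 (IFIT3 in HCC1954). Recovery at such sizes was not tested. Sequences are from the RefSeq promoter table (GRCh38.p14), read with Python 3.11.15.

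The members and lists were chosen with earlier results of these data known. Genes given in full were the 12 with the largest range of vehicle line means, each that passed a response test, those with at least 3 changes of 2-fold and the 8 with the largest line mean of the response. Alternatives were no filter on background or 1 channel above it, normexp (offset 50) with loess or median scaling, the matrix values, outlier-marked spots kept, scaling by the 75th percentile, the BMP7 channel, 1 array, line or scan batch left out, scan batch, time or slide as terms, other times, no line block and 3-fold in place of 2-fold. Leaving out each array of a line in turn in the within-line fits was added after seeing the data.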

Additional observations from a re-analysis of the deposited data

Results flagged for a closer look

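Of 58 sets of log ratios of named genes (4 to 6 arrays of a line), 6 had 1 array far from the others, where chance gives about 1 in 20. These were IRF7 in MDA-MB-361 at 0.5 h (-0.069, the others -0.43 to -0.35), OAS1 in MDA-MB-231 at 24 h (0.58, the others -0.07 to 0.09), IFITM2 in MDA-MB-231 at 12 h (0.72, the others 0.01 to 0.24), IFITM2 in T-47D at 24 h (-0.76, the others -0.29 to -0.06), BST2 in HCC1954 at 12 h (-0.13, the others -0.39 to -0.31) and IFI35 in MDA-MB-361 at 0.5 h (-0.18, the others 0.07 to 0.21). Of 46 sets of vehicle levels, 1 had such an array, BST2 in HCC1954 at 1 h with a log2 level of 13.5 beside a median of 12.73.

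The response to BMP7 differed between lines for IRF1 (limma F-test, adjusted p = 0.018), IFI35 (0.0285), IFITM2 (0.0292), TAP1 (0.0384) and BST2 (0.0479), the line means being given in the report. These were 5 of 28 genes tested, and 23.9% of all probes differed, so a difference was no more frequent in the group. The median F was 1.81 for the genes tested and 2.39 for all probes.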

How the results depend on the processing

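Over all alternatives 37 to 38 genes differed between lines in vehicle, 24 to 27 in HCC1954, 30 to 33 in MDA-MB-231, 30 to 36 in MDA-MB-361, 26 to 31 in T-47D and 17 to 22 in ZR-75-30 against the other 4, and 0 over time. Of 1798 refits of single vehicle results, 1738 kept their direction and their side of the threshold and 1 reversed, BST2 in MDA-MB-231 at -0.022 under normexp, loess and A-quantile against 0.31. Of 303 refits of single BMP7 results, 186 kept theirs, 117 kept the direction without passing and none reversed. With each array of a line left out in turn, an alternative chosen after seeing the data, 1 to 4 members were called in HCC1954, 0 to 0 in MDA-MB-231, 0 to 2 in MDA-MB-361, 2 to 5 in T-47D and 0 to 4 in ZR-75-30. The IRF7 call in the mean of lines fell to 0 without a background filter, under normexp and median scaling and in the first scan batch, and without any 1 line (0 to 0). Normexp and median scaling, which put array medians between -0.39 and 0.84, left 0 calls in HCC1954 (of 4), T-47D (of 3), ZR-75-30 (of 4), between lines (of 5) and late against early (of 2), and gave 7 in MDA-MB-231 (of 0), where matrix values gave 1. The first scan batch gave 2 calls in HCC1954, 4 in MDA-MB-361 (of 2), 1 in ZR-75-30, 3 between lines and 0 late. In ZR-75-30, 0 calls were left without a background filter, without the 6 h array and with slide as a block, and 1 with scan batch as a term. Slide as a block left 1 between lines. Late against early, 1 call was left with 1 channel above background, and 0 with no filter, normexp and loess, scan batch as a term, 3 to 24 h against 0.5 h or no line block (0 to 2 with a line left out). Changes of 2-fold numbered 38 with no filter, 28 with 1 channel above background, 10 under normexp and loess, 46 under normexp and median scaling (33 increases) and 3 at 3-fold. The causes were not tested. No paired analysis was possible because the labels give no replicate numbers, beyond the BMP7 and vehicle pair that each array holds. Genes near background had few ratios, 5 for IFI44L and 1 for TRIM22 of 30.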
